A study of Mus musculus with 8 samples.

Results

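Klf7, Sox4, Foxc1, Foxl2 and Nfil3 encode 5 DNA-binding transcription factors that are not part of the regulator set commonly used to define primitive endoderm (PrEn), and all 5 were higher in the Venus-positive than in the Venus-negative fractions of mouse embryonic stem (ES) cell cultures, in each of 2 clones. They differed in which Venus-positive fraction carried the rise. By the fraction means, Klf7 was as high in Venus-positive cells with SSEA-1 as in those without it, and Sox4 had most of its rise in the former. Nfil3 and Foxc1 had a smaller share there, and Foxl2 was raised mainly in cells without SSEA-1. Each gene was read by 1 probe, so the account rests on 5 of 29484 probes tested. The probes were selected by the study on these same arrays, since their names come from a table chosen by a test of the variance among the fractions at a controlled FDR, of which 1998 probes were named and tested here, and the genes were taken from that table because they rose. All differences between fractions below are therefore descriptions without a test. The difference between the clones was not used in that choice, although the spread between clones was in the error of that test, and it is the comparison tested here.

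HV cells are ES cells of strain 129/Ola in which a tagged Hex cDNA, an internal ribosome entry site that raises translation and the Venus fluorescent protein were knocked into the Hex locus, so that Venus (V) reports an early endoderm transcript. The parental line expresses the bacterial ligase BirA from the ROSA26 locus, and all 8 samples carry the ligase and the knock-in. Cells of clones 5.1 and 16.1 were plated at 200000 cells/ml and grown for 24 hours without feeder cells and with the cytokine LIF. They were sorted by flow cytometry on Venus and SSEA-1 (S), a surface antigen of undifferentiated ES cells. This gave 4 fractions, V-S+ and V-S- without Venus and V+S+ and V+S- with it, with 1 sample of each fraction per clone. Sample RNA carried Cy3 and shared its array with a Cy5-labelled common reference, RNA pooled from mouse cell lines, and values are log2 ratios of sample to reference. A ratio sets a sample against the reference for 1 probe and does not rank genes by abundance. Each group is 2 clonal lines, clone 5.1 and clone 16.1 lay on slides of their own, and clone and slide cannot be told apart. Every array came as 2 repeat scans, which were averaged, and the median Cy3 signal was between 2.36 and 2.87 times the local background per sample.

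Krüppel-like factors such as Klf7 bind GC-rich and CACCC elements through zinc fingers, and Klf7 is best known from neuronal differentiation and from fat cell precursors. Sox4 belongs to the SoxC group of HMG-box factors and acts in heart, lymphocyte and neural progenitors. Foxc1 and Foxl2 are forkhead factors, Foxc1 known from mesenchyme of the eye, skeleton and vessels and Foxl2 from the ovary, pituitary and eyelid, while Nfil3 (E4BP4) is a basic leucine zipper factor of the PAR-related group known from circadian output and innate lymphocytes. None of the 5 is a classical PrEn factor, a role usually given to Gata4, Gata6, Sox7, Sox17 and Hnf4a.

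Each probe was 60 bases long, and its first 30 bases, 5' to 3' as the scanner files give them, are shown to identify what was measured. The files place none of these probes in the genome.
Klf7 probe Z00019871-1: aacaagaagagggtccatcgctgtcagttt
Sox4 probe Z00064768-1: tccgtcactgcctgtcaggttgttcctata
Foxc1 probe Z00022421-1: gttacggaccaaacaccagaaagtgttcca
Foxl2 probe Z00010916-1: acctggtggttgagtaatgtctttcgggga
Nfil3 probe Z00022461-1: aatagcaaacttatctgcagaggtggtctc

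Because the 5 genes moved in the same direction, their promoter windows, 250 bases before to 50 after the start site in RefSeq (GRCm38.p6, 5 of 5 genes matched), were compared for short motifs on both strands. GC content was 58.3% for Klf7, 52.0% for Sox4, 67.3% for Foxc1, 71.3% for Foxl2 and 81.7% for Nfil3, against a median of 52.7% over 32851 windows, so that Sox4 lay just under that median and the other 4 above it. A GC box (GGGCGG) was found in 4 of the 5 windows, Sox4 being the exception, and in 35.7% of all windows. Those 4 are the windows with GC content above the median, and the background was not matched for GC content. The CCAAT box (CCAAT) was found in 3 of 5, namely Sox4, Foxc1 and Nfil3, against 37.4% of all windows. A CACCC box (CCACCC) was found in Klf7 alone, against 31.5%. The stretches that hold most of these matches are shown with the matches of the named motifs in capitals, as the reverse complement where the motif lies on the other strand. The GC box of Klf7 and a further CCAAT box of Foxc1 lie outside the stretches.
Klf7 (chr1:64121490-64121534, minus strand; CACCC box): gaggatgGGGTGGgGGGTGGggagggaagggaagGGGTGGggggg
Sox4 (chr13:28953700-28953874, minus strand; CCAAT box): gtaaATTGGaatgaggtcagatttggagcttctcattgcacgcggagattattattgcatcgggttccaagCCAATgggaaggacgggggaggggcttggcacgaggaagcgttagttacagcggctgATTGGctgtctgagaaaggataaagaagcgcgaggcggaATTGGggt
Foxc1 (chr13:31806541-31806577, plus strand; CCAAT box and GC box): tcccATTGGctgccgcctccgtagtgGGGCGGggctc
Foxl2 (chr9:98955395-98955418, plus strand; GC box): gcctGGGCGGggagGGGCGGcggg
Nfil3 (chr13:52981071-52981205, minus strand; GC box and CCAAT box): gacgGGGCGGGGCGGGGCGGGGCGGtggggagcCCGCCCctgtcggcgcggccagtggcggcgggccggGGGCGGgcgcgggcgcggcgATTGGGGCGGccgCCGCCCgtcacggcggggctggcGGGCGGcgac

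Klf7 carried 3 CACCC boxes, between 138 and 111 bases before its start site, besides 1 GC box. Sox4 carried 4 CCAAT boxes, and Nfil3 carried 9 GC boxes, 4 of them in a row that overlap by a base, with its single CCAAT box overlapping a further GC box. A TEAD site (GGAATG) was found in Sox4 alone, overlapping its most upstream CCAAT box, and in 14.7% of all windows. No window held an AP-1 site (TGACTCA or TGAGTCA, in 5.2% of all windows), a GATA site (AGATAA, 11.2%), a SOX site (ACAAAG or ACAATG, 28.6%), a forkhead site (TGTTTA, 13.4%), an NFIL3 site (TTACGTAA or TTATGTAA, 1.06%), a cyclic AMP response element (TGACGTCA, 1.79%) or a TATA box (TATAAA, 13.6%). These are matches of letters in 300 bases and say nothing about which factors bind there.

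The 5 probes were measured well above background in Cy3 in all 16 scanner files, and none was saturated. Klf7 and Sox4 were bright, with Cy3 signals between 67.6 and 202 times the local background for Klf7 and between 27.8 and 141 for Sox4. Nfil3 lay between 9.44 and 23.9 times background. The forkhead genes were the dimmest in the V- fractions, Foxc1 between 3.32 and 30.9 and Foxl2 between 2.49 and 14.8 times background over all samples. The Cy5 reference signal of a probe varied over the 8 samples by between 1.19-fold for Foxl2 and 1.37-fold for Foxc1, while its Cy3 signal varied by between 2.41-fold for Nfil3 and 8.78-fold for Foxc1. Repeat scans of a sample differed by at most 0.17 on the log2 scale, for Foxc1.

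**Figure D1:**
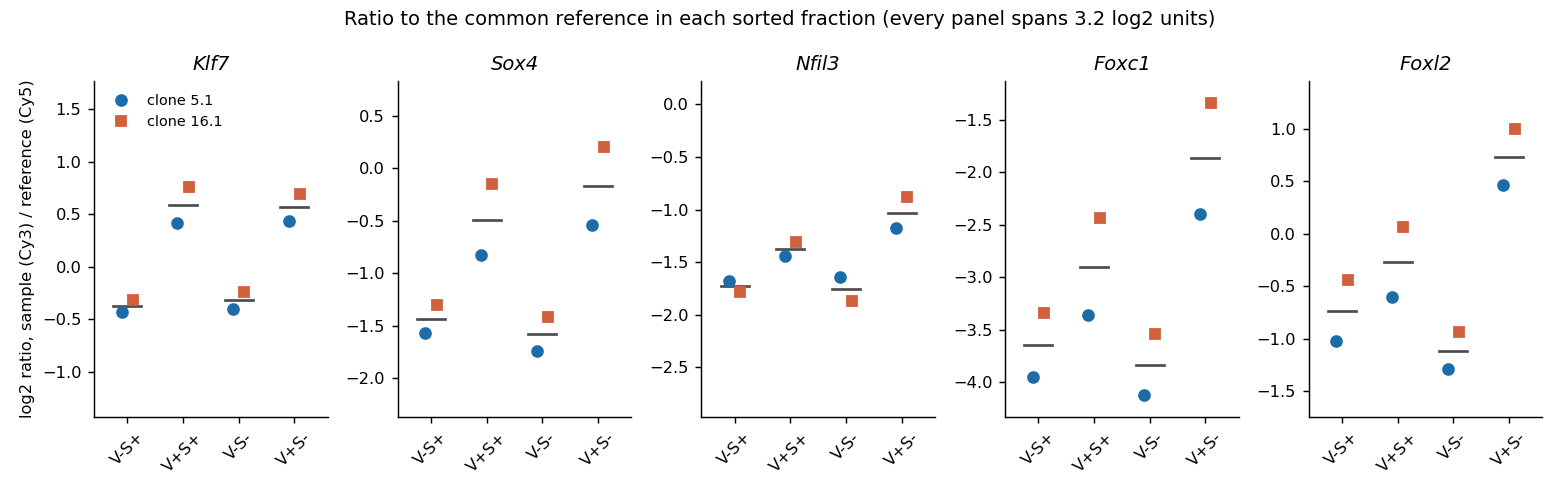
Log2 ratio of sample to reference (vertical axis) of each gene in the 4 sorted fractions (horizontal axis), with clone 5.1 as circles, clone 16.1 as squares and the mean of both as a bar; each panel spans the same number of log2 units from its own starting level. For Klf7 the V+S+ and V+S- bars are level, at 0.59 and 0.57, while for Foxl2 the V+S- bar, at 0.73, stands clear of the other 3.

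Klf7 had 2 levels, low in V- and high in V+ cells. In clone 5.1 its log2 ratio stood at -0.43 in V-S+ and -0.40 in V-S- cells, 0.42 in V+S+ cells and 0.44 in V+S- cells. In clone 16.1 the same ratios were -0.31, -0.24, 0.76 and 0.70 in the same order. All 4 V+ samples lay above all 4 V- samples, and the order of V+S+ and V+S- was opposite in the 2 clones, so these neighbours did not differ beyond their spread. V-S- was above V-S+ within each clone, by 0.02 and 0.08, but the mean difference of 0.05 turned to -0.16 with median centring in place of loess and to -0.0096 with Cy3 alone, while the V- samples of the 2 clones did not overlap, clone 16.1 lying above clone 5.1. Against V-S+, Klf7 was higher by 0.96 in V+S+ (0.84 and 1.08 in clones 5.1 and 16.1, SD 0.17, n = 2), which is 1.94-fold, and by 0.94 in V+S- (0.86 and 1.01, SD 0.10, n = 2), which is 1.91-fold.

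Sox4 was higher in V+S+ cells and, within each clone, higher again in V+S- cells. In clone 5.1 its log2 ratio stood at -1.57 in V-S+ and -1.74 in V-S- cells, -0.83 in V+S+ cells and -0.54 in V+S- cells. In clone 16.1 it was -1.30, -1.42, -0.15 and 0.20 in the same order. All 4 V+ samples again lay above all 4 V- samples, with V-S- lowest and V+S- highest in each clone. The V+S+ and V+S- samples of the 2 clones overlapped each other, since V+S+ of clone 16.1 was above V+S- of clone 5.1. Against V-S+, Sox4 was higher by 0.95 in V+S+ (0.75 and 1.15, SD 0.29, n = 2) and by 1.27 in V+S- (1.03 and 1.502, SD 0.33, n = 2), folds of 1.93 and 2.41, the first difference being 0.61 without V+S+ of clone 16.1.

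Nfil3 had the smallest range of the 5, 0.99 on the log2 scale over the 8 samples. In clone 5.1 its log2 ratio stood at -1.68 in V-S+ and -1.64 in V-S- cells, -1.44 in V+S+ cells and -1.18 in V+S- cells. In clone 16.1 it was -1.78, -1.87, -1.31 and -0.88 in the same order. Both V- samples of clone 16.1 lay below both of clone 5.1, V+S+ lay above all 4 of them and V+S- above V+S+, with no overlap between the V+ fractions. The differences from V-S+ were 0.36 in V+S+ (0.24 and 0.48, SD 0.17, n = 2) and 0.70 in V+S- (0.50 and 0.90, SD 0.28, n = 2), folds of 1.28 and 1.62, and the V+S- difference was under 1.5-fold in clone 5.1.

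Foxc1 had the widest span of the 5, 2.78 on the log2 scale over the 8 samples. In clone 5.1 its log2 ratio stood at -3.95 in V-S+ and -4.12 in V-S- cells, -3.36 in V+S+ cells and -2.39 in V+S- cells. In clone 16.1 it was -3.34, -3.54, -2.44 and -1.34 in the same order, so Foxc1 was below the reference pool in every sample. V+S- stood above every other sample within its clone, and V+S- of clone 5.1 was just above V+S+ of clone 16.1, while V+S+ of clone 5.1 lay just under V-S+ of clone 16.1. Against V-S+, Foxc1 was higher by 0.75 in V+S+ (0.60 and 0.91, SD 0.22, n = 2) and by 1.78 in V+S- (1.56 and 2.00, SD 0.32, n = 2), folds of 1.68 and 3.43. V+S- exceeded V+S+ by 1.03 (SD 0.10, n = 2). The V+S+ difference was 0.29 without V+S+ of clone 16.1, 1.21 without V+S+ of clone 5.1 and 0.45 without V-S+ of clone 5.1, and V+S- minus V+S+ lay between 0.50 and 1.56 without single samples.

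By the fraction means, most of the difference of Foxl2, the other forkhead gene, lay between the V+ fractions. In clone 5.1 its log2 ratio stood at -1.02 in V-S+ and -1.29 in V-S- cells, -0.60 in V+S+ cells and 0.47 in V+S- cells. In clone 16.1 it was -0.44, -0.94, 0.06 and 1.00 in the same order. Within each clone V-S- was lowest, V-S+ next and V+S- highest, but V-S+ of clone 16.1 exceeded V+S+ of clone 5.1, so only V+S- was free of overlap. Foxl2 was higher than V-S+ by 0.46 in V+S+ (0.42 and 0.50, SD 0.06, n = 2) and by 1.46 in V+S- (1.48 and 1.44, SD 0.03, n = 2), folds of 1.38 and 2.76. Its V+S+ difference was 0.13 without V+S+ of clone 16.1, 0.79 without V+S+ of clone 5.1, 0.17 without V-S+ of clone 5.1 and 0.75 without V-S+ of clone 16.1. V+S- exceeded V+S+ by 1.00 (SD 0.09, n = 2), and by 0.67 to 1.33 without single samples. Without V+S+ of clone 5.1 the step from V-S+ to V+S+ was the larger one. Between the V- fractions, V-S- minus V-S+ was -0.38 for Foxl2 (-0.27 and -0.49) and lay between -0.18 and 0.05 for the other 4. Without single samples it lay between -0.67 and -0.10 for Foxl2 and between -0.49 and 0.12 for Foxc1, so that Foxl2 did not stand apart there. With median centring in place of loess it was -0.49 for Foxl2, -0.35 for Foxc1, -0.34 for Sox4, -0.20 for Nfil3 and -0.16 for Klf7.

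In counts, V+S+ exceeded V-S+ in each clone for 5 of the 5 genes and for 39.7% of all probes, and V+S- exceeded V-S+ in each clone for 5 of 5 and for 43.6%. In 3 of 5, Klf7, Sox4 and Nfil3, all 4 V+ samples lay above all 4 V- samples, which held for 16.7% of probes. The limma fit with fraction as its only term, at an FDR of 0.05 and more than 1.5-fold, had all 5 among its higher calls in V+S- against V-S+, with 5.73% of all probes and 48.1% of the 1998 named probes called higher. For V+S+ against V-S+ it called 0 of 5 genes and 0% of probes, with 3243 probes and 3 of the 5 genes higher at an unadjusted p under 0.05. With clone as a block, the fit that compares fractions within a clone, 3 of 5 were called there (Klf7, Sox4 and Foxc1), and 3.87% of probes. For V+S- against V+S+ the fit without the block called 0 of 5 genes and 0% of probes, with 2799 probes and 2 of the 5 genes at an unadjusted p under 0.05, and the fit with the block called 2 of 5 (Foxc1 and Foxl2) and 1.75% of probes. Nothing is read from these calls, since the choice of the genes used these contrasts. The call of the 5 genes in V+S- against V-S+ also hung on single samples: 0 of 5 were called without either V-S+ sample or without V+S- of clone 16.1, 3 without V+S- of clone 5.1, 2 without either V-S- sample, and 3 in a fit of only these fractions. In bulk RNA of a sorted fraction, more cells that express a gene and more RNA per cell cannot be told apart.

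The genes were ranked by the share of the V+S- rise over V-S+ that was present in V+S+, on the log2 scale, where 100% means that V+S+ was at the V+S- level. Klf7 was first at 102% (97.5% in clone 5.1 and 107% in clone 16.1, SD 6.40, n = 2). Sox4 followed at 74.7% (72.0% and 76.5%, SD 3.19). Nfil3 had 51.2% (47.8% and 53.1%, SD 3.74), Foxc1 42.2% (38.2% and 45.2%, SD 4.95) and Foxl2 31.6% (28.2% and 35.0%, SD 4.82). The order was the same in both clones, and the clones of neighbouring genes did not overlap in share, the narrowest gap being between Nfil3 of clone 5.1 and Foxc1 of clone 16.1. Without single samples, when a fraction mean rests on 1 clone, the share of Foxl2 lay between 9.00% and 54.1%, that of Foxc1 between 16.3% and 68.0%, that of Sox4 between 48.1% and 105%, that of Nfil3 between 41.6% and 64.9% and that of Klf7 between 83.8% and 121%, and Foxc1 stood above Nfil3 without V+S+ of clone 5.1 or V-S+ of clone 16.1. As V-S+ and V+S- of a clone set the scale for every gene, the shares of a clone are not independent of each other. On the linear scale of ratios the shares were 104%, 65.8%, 44.7%, 28.2% and 22.1% in the same order of genes.

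**Figure D2:**
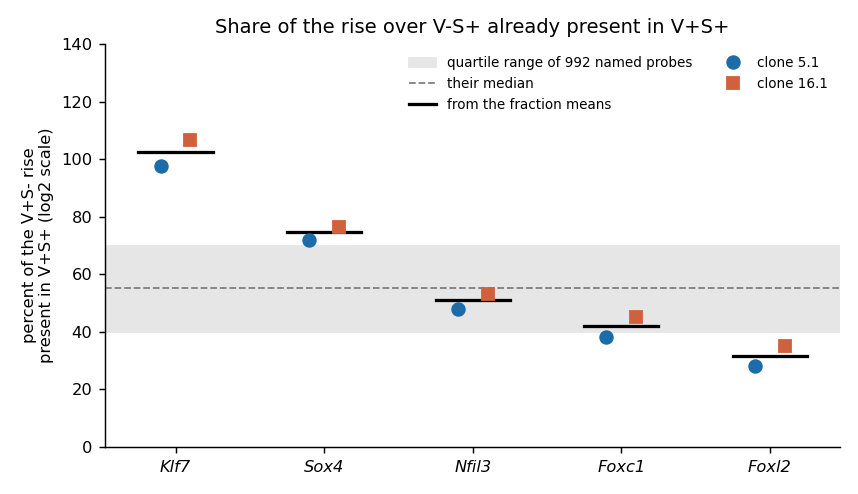
Share of the V+S- rise over V-S+ that was present in V+S+, in percent on the log2 scale, for each gene in clone 5.1 (circles) and clone 16.1 (squares) with the value from the fraction means as a bar. The grey band is the quartile range, 39.9% to 69.8%, and the dashed line the median, 55.1%, of 992 named probes. By their bars, Klf7 and Sox4 lie above the band, Nfil3 and Foxc1 in it and Foxl2 below it. Foxc1 of clone 5.1, at 38.2%, lies just below the band.

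For scale, there were 992 named probes with a rise from V-S+ to V+S- of more than 1.5-fold in each clone, 4 of the 5 genes among them and Nfil3 just outside with 0.50 on the log2 scale in clone 5.1. Their median share was 55.1% with quartiles of 39.9% and 69.8%. Klf7 was among the 40 (4.03%) with a share of 100% or more, Sox4 was above the upper quartile, Foxc1 between the quartiles and Foxl2 below the lower quartile. The median share of these probes was 42.8% in clone 5.1 and 66.1% in clone 16.1, so V+S+ lay nearer to V+S- in clone 16.1. The 5 genes had larger shares in clone 16.1 too, by between 4.5 and 9.0 percentage points. The 12 named markers of the PrEn had shares between 18.5% for Gata6 and 88.8% for Lrp2, an endocytic receptor of the visceral endoderm, and 10 of them lay above Foxl2, with Gata6 and Sox7 below it.

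The clone comparison asked whether the level of each gene differed between the lines. The choice of the genes did not use this difference, although the spread between clones was in the error of the selecting test. The n = 4 of a clone are its 4 sorted fractions on 1 slide, with nothing to show separate cultures. Clone and slide cannot be told apart here, and the p-values measure only the spread between these samples. Over the 4 fractions, 4 of the 5 genes were higher in clone 16.1 at an FDR of 0.05 by limma, as were 16.4% of probes, and 1 of 5, Foxc1, was also more than 1.5-fold higher, as were 1.39% of probes. The median difference over all probes was 0.01, and 27.7% of probes were higher in clone 16.1 in all 4 fractions, as were 4 of these genes. These percentages are over all tested probes, and those among named or rising probes are not given. In V-S+, the mean log2 ratio of the 7 named mesenchyme markers was -2.88 in clone 5.1 and -2.44 in clone 16.1. Of the gene lists below, only the pluripotency and trophectoderm markers had a lower mean in clone 16.1 in V-S+. Whether the clone difference is particular to these 5 genes was not tested.

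**Figure D3:**
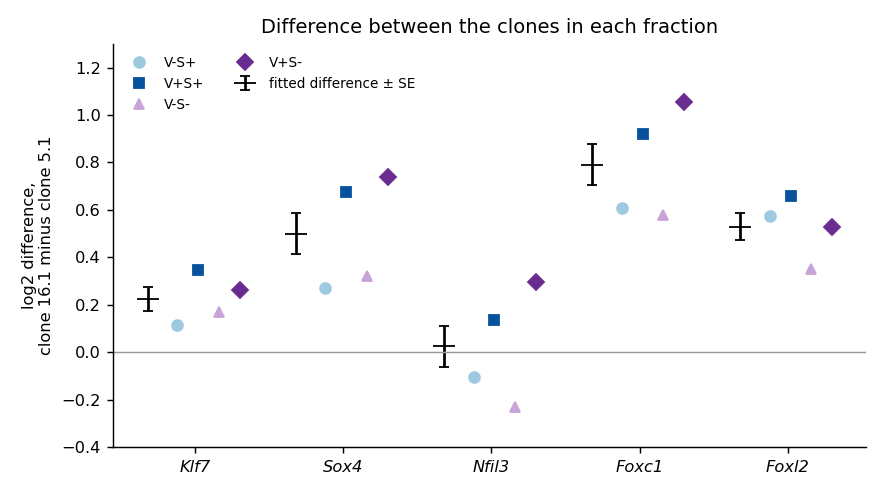
Log2 difference of clone 16.1 minus clone 5.1 (vertical axis) for each gene, with a symbol for each fraction and the fitted difference over the 4 fractions with its standard error as a black bar. Foxc1 lies highest, at 0.79 ± 0.09, and Nfil3 has V- fractions below 0 and V+ fractions above 0.

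Foxc1 was higher in clone 16.1 by 0.79 (SE 0.09, limma adjusted p = 0.0028, n = 4 per clone), which is 1.73-fold, with differences of 0.61 in V-S+ and 0.58 in V-S- cells, 0.92 in V+S+ cells and 1.05 in V+S- cells. Foxl2 was higher by 0.53 (SE 0.06, limma adjusted p = 0.0028, n = 4 per clone), with 0.57, 0.35, 0.66 and 0.53 in the same order of fractions. Sox4 was higher by 0.50 (SE 0.09, limma adjusted p = 0.0099, n = 4 per clone), with 0.27, 0.32, 0.67 and 0.74, and its adjusted p was 0.071 with the authors' values. For Foxc1 and Foxl2 the gap between the lines within V-S+ was of the same order as the step from V-S+ to V+S+, which was 0.75 for Foxc1 and 0.46 for Foxl2.

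Klf7 was higher in clone 16.1 by 0.22 (SE 0.05, limma adjusted p = 0.022, n = 4 per clone), a difference smaller than 1.5-fold in every fraction, between 0.11 in V-S+ and 0.35 in V+S+. Its adjusted p was 0.063 with the scanner-processed signals and at most 0.108 over the alternatives, and it was 0.065 without either V+S+ sample, 0.051 without either V-S- sample and 0.084 without either V+S- sample. Nfil3 did not pass, with a difference of 0.02 (SE 0.09, limma adjusted p = 0.87, n = 4 per clone). Its difference was negative in the V- fractions (-0.11 with SSEA-1 and -0.23 without) and positive in the V+ fractions (0.13 with SSEA-1 and 0.30 without).

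The V+ minus V- difference, averaged over the S+ and S- pairs, was larger in clone 16.1 for all 5 genes and for 54.4% of probes. That percentage is over all tested probes, rising or not, and the one among rising probes was not computed. The difference uses the V+ and V- values that the choice of the genes used and is given with no test. Sox4 had 0.97 in clone 5.1 and 1.39 in clone 16.1, Foxc1 had 1.16 and 1.55, and Nfil3 had 0.35 and 0.73. The gap between the clones was smaller for Klf7 (0.16) and Foxl2 (0.13).

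Across the 8 samples, with the mean of each clone subtracted, the profiles of the 5 genes correlated with r between 0.82 (Klf7 and Foxl2) and 0.99 (Foxc1 and Foxl2), as a description over samples that share 2 clones and a choice for rising. The probes most like each gene were taken from 1997 other named probes. Klf7 was nearest to Ctgf (r = 0.997), a matricellular protein, Abcg2 (0.996), an efflux transporter, and Tagln2 (0.996), an actin-binding protein, whose shares of the rise were 96.9%, 104% and 98.4%. Sox4 was nearest to Gnas (0.999), the stimulatory G protein alpha subunit, Akr1c14 (0.999), a hydroxysteroid dehydrogenase, and Itgb1 (0.997), the integrin beta-1 chain, with shares of 69.6%, 74.6% and 71.9%.

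Foxc1 was nearest to Jak2 (0.999), the cytokine receptor kinase, Ust (0.998), a uronyl sulfotransferase, and Cdh13 (0.998), T-cadherin. Foxl2 was nearest to Tgfb2 (0.998), a TGF-beta ligand, Ccdc80 (0.997), a matrix-associated protein, and Gsn (0.996), the actin-severing protein gelsolin. Nfil3 had slightly lower values, with Cyp1a1 (0.992), a xenobiotic-metabolising enzyme, Pmepa1 (0.990), a TGF-beta-induced membrane protein, and Slc22a15 (0.989), a solute carrier. The neighbours of the 5 genes were 15 different genes, and the shares of the last 9 lay between 30.6% for Ccdc80 and 55.3% for Pmepa1.

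The other named genes of the same families were set beside these 5. They too were selected by the study on these samples, so their direction is no independent evidence. Of 44 forkhead genes, 5 were named and tested, and 3 rose and 1 fell in V+S- against V-S+ in the limma fit at an FDR of 0.05 and more than 1.5-fold. That fit called 5.73% of all probes higher and 1.28% lower, and 48.1% and 11.6% of the 1998 named probes, which are the background for the counts of family and marker genes here and below. Foxq1 rose by 1.47 on the log2 scale with a share of 39.5%, near Foxc1, Foxj1, a gene of ciliated cells, differed by 0.58 and was not called, and Foxn4 fell by 1.17. The median of the 5 was 1.46 in V+S-, against 0.01 over all tested probes and 0.67 over all named probes.

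Of 19 Sox genes, 5 were named, of which 3 rose and none fell (48.1% and 11.6% of named probes), with a median of 1.20. Sox7, a SoxF factor of the PrEn, had the largest rise, 1.77. Sox11, the SoxC relative of Sox4, differed by 1.20 and was not called, with a share of 55.2% against 74.7% for Sox4. Sox6 rose by 1.13 with a share of 73.9%, close to that of Sox4, and Sox9 differed by 0.73 with a share of 25.3% and was not called.

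Of 17 Klf genes, only Klf6 and Klf7 were among the 1998 probes named here. Klf6, a widely expressed injury-response member of the family, differed by 0.89 in V+S+ and by 0.96 in V+S-, was not called, and had a share of 93.5%, so that both named Klf genes stood near 100%. Of 43 basic leucine zipper genes, 13 were named, of which 7 rose and none fell, against 48.1% and 11.6% of named probes, with a median of 0.93 in V+S- and 0.63 in V+S+. The largest differences in V+S- were Maf (2.06), Fosl2 (1.57, not called) and Jun (1.23), and the smallest Batf (-0.56) and Junb (0.54), neither called. Nfil3 came after 9 of the other 12 in the size of its difference. Shares of the 13 ran from 28.4% for Maf to 140% for Cebpd, with 118% for Junb. A share near or above 100% was therefore not particular to the Klf genes.

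**Figure D4:**
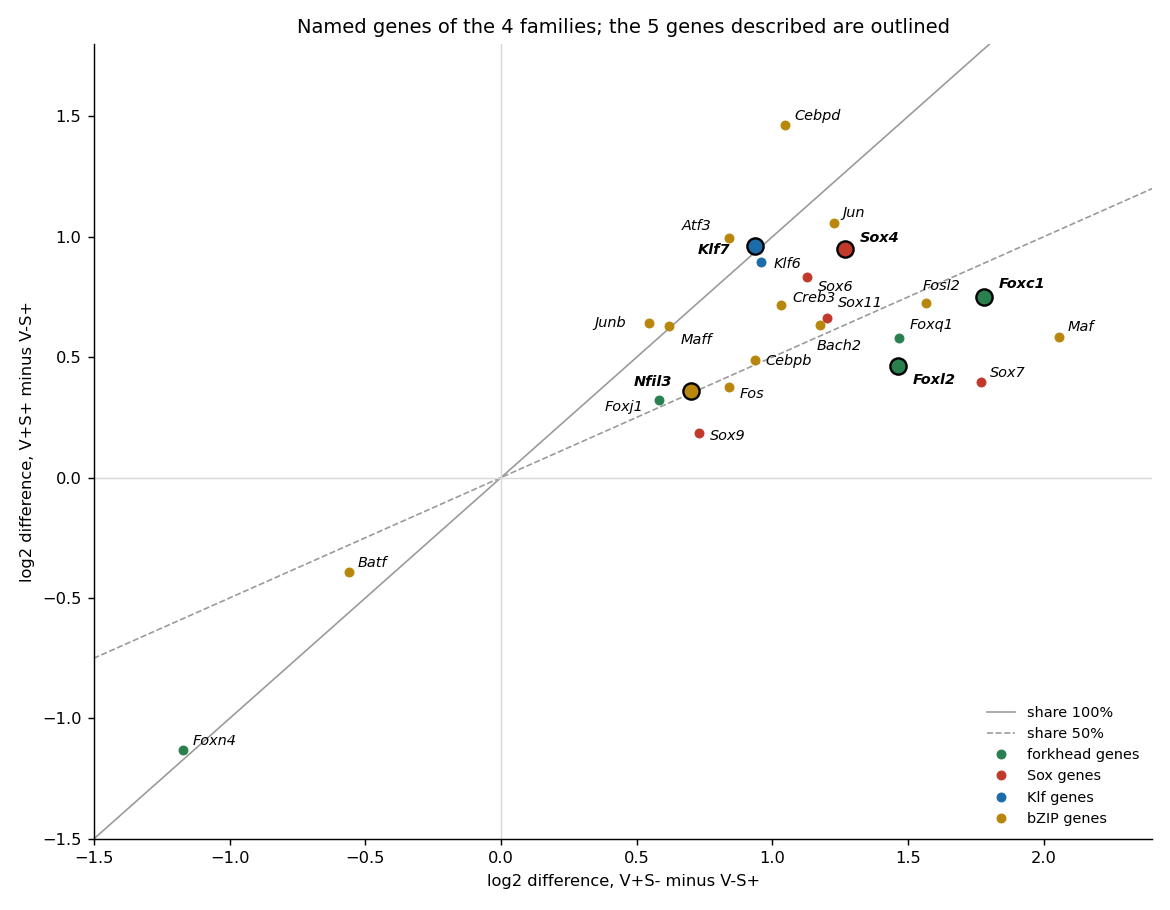
Log2 difference of V+S+ minus V-S+ (vertical axis) against V+S- minus V-S+ (horizontal axis) for the named forkhead, Sox, Klf and bZIP genes, with Klf7, Sox4, Nfil3, Foxc1 and Foxl2 as large outlined points and lines where the share is 100% and 50%. Both Klf genes lie by the 100% line, several bZIP genes lie by or above it, and Foxc1, Foxq1 and Foxl2 lie together below the 50% line.

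Markers of several cell types moved with the rise of the 5 genes, and their part in it was not tested. Of 26 PrEn markers 12 were named, 11 rose in V+S- and none fell, where 48.1% of named and 5.73% of all probes were called higher. In clones 5.1 and 16.1 their summed ratio was 10.2 and 11.8 in V-S+ cells, 8.50 and 9.95 in V-S- cells, 15.9 and 22.5 in V+S+ cells and 24.0 and 26.9 in V+S- cells. The largest differences were Sox7 (1.77), Krt18 (1.24) and Col4a1 (1.24), and the smallest Lamb1-1 (0.89) and Afp (0.58, not called). Of 18 pluripotency markers 6 were named, 4 fell in V+S- (Dppa3 by 1.75, Pou5f1 by 1.01, Nanog by 0.96 and Tdgf1 by 0.61) and none rose, where 11.6% of named and 1.28% of all probes were called lower, while Prdm14 (-0.77) and Sall4 (-0.52) were not called. Their summed ratio was 18.7 and 18.3 in V-S+ cells, 16.5 and 17.2 in V-S- cells, 16.0 and 11.9 in V+S+ cells and 9.89 and 8.78 in V+S- cells.

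All 7 named genes of mesenchyme or fibroblasts, where Foxc1 is also known, exceeded their V-S+ level in both V+ fractions of each clone. Of 17 in the list 7 were named, 5 rose in V+S- and none fell, with summed ratios of 1.72 and 2.49 in V-S+ cells, 1.47 and 1.92 in V-S- cells, 2.64 and 4.68 in V+S+ cells and 4.74 and 6.61 in V+S- cells. Vim (vimentin) rose by 2.14, Postn (periostin) by 1.99 and Col1a2 (a collagen I chain) by 1.95, while Tagln (1.31) and Acta2 (1.27) were not called. The shares of the 7 lay between 24.1% for Postn and 70.0% for Tagln. Of 12 neuroectoderm markers 3 were named, Fabp7 (2.14) and Pou3f1 (1.11) rising and Hes5 falling by 0.81, of 7 trophectoderm markers 4, with Gata3 (1.11), Plac1 (1.08) and Krt7 (0.73) rising and Tcfap2c (-0.88) not called, and of 10 mesoderm markers 1, Gsc (-0.44, not called). Every named marker probe was well above background in all 16 files, so no named marker was at 0.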

How the data were processed

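The authors deposited the intensity of each spot in both channels as written by Agilent Feature Extraction 9.5.1.1, in 16 files, and log10 values of their own for 25164 probes. With gene means removed, each column of these followed the processed ratios (r between 0.998 and 1.000 across probes), while the level added to each probe is unknown, and column medians lay between 2.31 and 2.34. The genome build of the probes was not used here. Gene names came from the study's list of selected probes, of which 1998 were available and used. A gene not named here may still be on that list or on the array.

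Intensities were background-corrected (normexp, offset of 50), spots that the scanner software marked as outliers were left out, and values were loess-normalized within each scan with limma 3.58.1 in R 4.3.3, and log2 ratios of Cy3 over Cy5 were taken, since every array held the sample in Cy3 and the reference in Cy5, with no dye swap. Of 42006 probes, 29495 passed the scanner's test against background in every file of at least 1 fraction, and 29484 of them had a value in every sample. All 8 samples were fitted with fraction as the only term, and clones with fraction and clone. Calls needed an FDR of 0.05 and more than 1.5-fold. Clone numbers pair the samples, being cell lines (for the 6 pairs of fractions, deviations from the fraction means had an r of 0.59 to 0.81 across probes), so the fit with clone as a block is given where it changed a call. The scripts were tested on simulated data. The genes and lists were chosen with earlier results of these data known. Besides the 5 genes, the text names the 3 named probes most like each, and from each list every named gene up to 6, otherwise the 3 largest and 2 smallest differences. Promoters are from RefSeq. The number of arrays limits the precision, and, as nothing says that fractions were sorted from separate cultures, p-values measure only the spread between these samples. Other background corrections, normalizations, filters, scans and samples were tried.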

Additional observations from a re-analysis of the deposited data

Results flagged for a closer look

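Some differences ran opposite ways in the clones, which was not tested. For Nfil3, clone 5.1 had 0.037 and clone 16.1 had -0.087 as V-S- minus V-S+, and for Klf7, clone 5.1 had 0.021 and clone 16.1 had -0.066 as V+S- minus V+S+, with 1 sample on each side.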

How the results depend on the processing

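The order of shares, from Klf7 over Sox4, Nfil3 and Foxc1 to Foxl2, was the same under all 8 alternatives run for it. Leaving out V+S+ of clone 5.1 or V-S+ of clone 16.1 put Foxc1 above Nfil3, and without single samples the shares ranged from 83.8% to 121% for Klf7, 48.1% to 105% for Sox4, 41.6% to 64.9% for Nfil3, 16.3% to 68.0% for Foxc1 and 9.00% to 54.1% for Foxl2, since a fraction mean then holds 1 clone. With median centring in place of loess the shares were 92.2% for Klf7, 68.7% for Sox4 and 43.4% for Nfil3, and on the linear scale 65.8% for Sox4, 44.7% for Nfil3, 28.2% for Foxc1 and 22.1% for Foxl2.

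The paired analysis, with clone as a replicate block, called 3 of 5 genes for V+S+ against V-S+ and 2 of 5 for V+S- against V+S+, in place of 0 of 5 each, and changed no other count. For V+S- against V-S+, in place of 5 of 5, 2 were called with the scanner-processed signals, 3 with median centring, 4 with Cy3 alone, 4 with no filter on dim probes, 0 with the authors' values and 3 in the fit of only these fractions, and without single samples the count lay between 0 and 5. The cause was not tested.

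Between clones, 2 of 5 were called with the scanner-processed signals and with the authors' values, 4 with no fold threshold, and 1 to 2 without single samples. Foxc1 and Foxl2 passed the FDR in each of 9 alternatives. Sox4 had 0.47 with the authors' values (adjusted p = 0.071). Klf7 had 0.195 with the scanner-processed signals (adjusted p = 0.063), 0.196 with Cy3 alone (0.093) and 0.194 with the authors' values (0.11), and 0.18 to 0.26 without single samples, with an adjusted p above 0.05 in 6 of 8, its fold being under 1.5 throughout. Nfil3, which was not called, took the opposite sign at -0.0043 with the scanner-processed signals and -0.0044 with the authors' values, and ranged from -0.067 to 0.11 without single samples.

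The V+ minus V- difference of clone 16.1 minus clone 5.1, a value added after seeing the data, kept its sign for each gene under 9 alternatives and without single samples, and lay between 0.054 and 0.16 for Foxl2 and between 0.13 and 0.26 for Klf7 over the alternatives. The dimmest values, Foxc1 and Foxl2 in the V- fractions, had a Cy3 signal of 2.49 to 6.23 times background.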
